A study of Mus musculus with 78 samples.

Results

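The Hox genes are the 39 protein-coding genes whose symbols are Hoxa, Hoxb, Hoxc or Hoxd followed by a number, taken by symbol from 55401 genes in each of 3 read count tables of mouse embryonic stem cells (mESCs). They lie in 4 clusters, with 11 genes in Hoxa on chromosome 6, 10 in Hoxb on chromosome 11, 9 in Hoxc on chromosome 15 and 9 in Hoxd on chromosome 2. The number of a gene gives its position along its cluster, which runs from 3′ to 5′, so that 12 genes are at positions 1 to 4, 11 at positions 5 to 8 and 16 at positions 9 to 13. The clusters span 105.3 kb, 173.9 kb, 115.8 kb and 96.8 kb of the mm10 genome.

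The study examined ZFP143, a zinc finger transcription factor, in E14TG2a cells, an established mESC line. All cells, controls included, carried FKBP fused to ZFP143 at the endogenous gene, which lets the compound dTAG-V1 (dTAG, 500 nM) degrade the protein, with DMSO as control. The cells grew in serum-free medium with LIF and inhibitors of MEK and GSK3, which holds them in the naive pluripotent state. In the retinoic acid (RA) experiment, RNA-seq libraries came from cells after 24 h in DMSO or dTAG and from cells that then had 24 h of RA in the same condition, which makes 48 h of depletion in the last group. A depletion time course of RNA-seq compared DMSO with 24, 48 and 72 h of dTAG, and one of TT-seq, which reads RNA labelled for 10 min with 2 mM 4-thiouridine, compared DMSO with 2, 6 and 24 h. Each group held 2 libraries of the edited line, described as biological replicates, and p-values measure the spread between those libraries, and an exact permutation test of 2 against 2 libraries cannot go below p = 0.333. RA came with a differentiation medium that was not given alone to any library, so an RA effect below includes that of the medium and, in dTAG, that of the second day of depletion. Cells without the FKBP fusion that received dTAG were not analysed here.

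Hox genes encode homeodomain transcription factors that give cells of the embryo their identity along the head to tail axis. In mESCs most of them are kept off by Polycomb repression. RA enters the nucleus, binds its receptors on response elements inside and beside the clusters, and switches Hox genes on from the 3′ end of a cluster towards the 5′ end, first in cells of the future hindbrain and neck. The genes at the first positions act in the hindbrain and pharyngeal arches, those in the middle in the neck and trunk, and those at the last positions in the lumbar and tail regions, the limbs and the urogenital tract.

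The RA receptor element that is most typical of Hox genes is a direct repeat with a spacer of 5 bases between its half-sites. Within 10 kb of the clusters, both strands were searched for a pair of 6-base half-sites in the same direction with this spacer. A half-site had A or G, then G, then G or T, and then TCA. The search found 6 repeats, of which 5 are given here because RA receptors are known to bind such sequences and the clusters differ in them, with both half-sites in capitals and the spacer in lower case, 5′ to 3′ from the GRCm38.p6 assembly of RefSeq.
Hoxa, within the span of Hoxa3, chr6:52175533-52175549, minus strand: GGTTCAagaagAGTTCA
Hoxb, beyond the 3′ end of Hoxb1, chr11:96372776-96372792, plus strand: GGTTCAtagagAGTTCA
Hoxb, within the span of Hoxb3, chr11:96341236-96341252, plus strand: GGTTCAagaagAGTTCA
Hoxb, between Hoxb13 and Hoxb9, chr11:96212029-96212045, minus strand: AGGTCAgggaaGGGTCA
Hoxd, within the span of Hoxd3, chr2:74741540-74741556, plus strand: GGTTCAagcagAGTTCA

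The elements of Hoxa3 and Hoxb3 had the same 17 letters, and of the 5 all but the one between Hoxb13 and Hoxb9 held the half-sites GGTTCA and AGTTCA. The repeat beside Hoxb1 lay 4.53 kb past the 3′ end of the gene. No such repeat was found in Hoxc or within 10 kb of it, which says only that these letters are not in that window. Tiles of 10 kb with a repeat made up 2 of 14 in Hoxa, 3 of 20 in Hoxb, 0 of 14 in Hoxc and 1 of 13 in Hoxd, against 3.18 to 3.71% of the tiles of the same chromosomes. A match is a description of the sequence and not of binding.

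**Figure D1:**
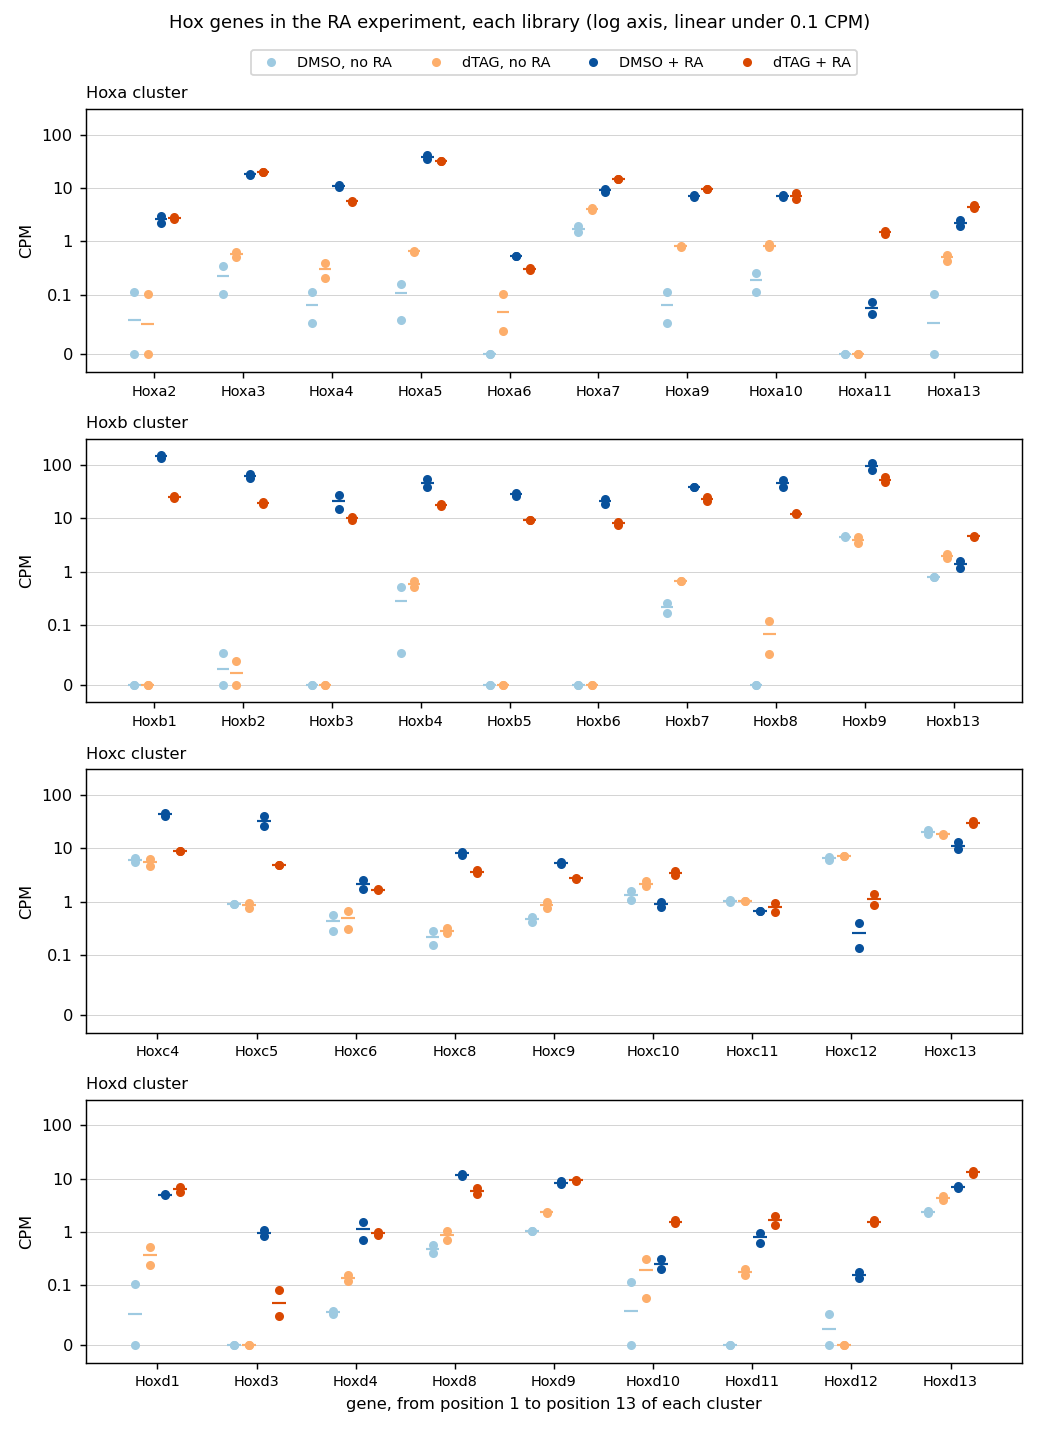
Level of 38 Hox genes in CPM (log axis, linear under 0.1 CPM) in the 8 libraries of the RA experiment, by cluster and from position 1 to 13, with points for libraries and short lines for means of the 2 libraries of a group. After RA the dTAG points of the Hoxb genes from Hoxb1 to Hoxb9 lie under the DMSO points, while in Hoxa and Hoxd most pairs lie close together or the dTAG points lie above.

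The libraries of the RA experiment held between 13890761 and 27089033 counts, those of the RNA-seq time course between 10261851 and 15316700 and those of TT-seq between 9721568 and 16532077. Genes were tested in a table where 4 or more of its 8 libraries had over 10 counts, which 33, 14 and 11 Hox genes met. The transcript of Zfp143 was higher in every dTAG group than in its DMSO group, by 1.09 to 1.38 on the log2 scale, and was 40.5 CPM in DMSO and 104 CPM in dTAG before RA. The degron acts on the protein, so the transcript gives no check of the depletion. Pluripotency markers showed the labelled cell type, with Pou5f1 at 1480 and 1650 CPM and Nanog at 748 and 707 CPM in the DMSO libraries before RA.

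RA switched most Hox genes on in both conditions. With more than 10 counts in both libraries, 12 of the 39 genes were read in DMSO and 19 in dTAG before RA, against 32 and 37 after RA. Before RA, 9 genes had no counts in either DMSO library and 7 in neither dTAG library, and after RA all 39 had counts in both conditions. Because many genes pass the filter only through their RA libraries, the counts of calls that follow describe the genes and are no test of the group. With edgeR (glmTreat against a 1.5-fold change, adjusted p under 0.01), 28 of the 33 tested Hox genes were higher and 1 was lower after RA in DMSO, where 25.8% of all 15915 tested genes were higher and 18.1% lower. In dTAG the numbers were again 28 and 1, against 25% and 18.5% of all tested genes. The gene that fell in both was Hoxc12, and without 1 of the DMSO libraries with RA (replicate 1) the number of lower genes in DMSO was 2. The median log2 change with RA was 5.17 in DMSO and 3.57 in dTAG, and it was the same to 2 decimals when the genes without counts before RA (5 in DMSO, 4 in dTAG) were set to their lower bounds.

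After RA, Hox genes differed between dTAG and DMSO in both directions. By the same test 9 Hox genes were lower in dTAG and 4 were higher, against 7.36% lower and 9.1% higher of all 15915 tested genes. The 9 lower genes were Hoxb1, Hoxb2, Hoxb4, Hoxb5, Hoxb6 and Hoxb8 and Hoxc4, Hoxc5 and Hoxc8, all at positions 1 to 8. The 4 higher genes were Hoxb13, Hoxc10, Hoxc12 and Hoxc13, all at positions 10 to 13. The share of higher genes, 4 of 33, was near that of all genes. With DESeq2 as the test 8 were lower and 1 was higher, with Hoxc13 kept and Hoxb13 (adjusted p = 0.0171), Hoxc10 (adjusted p = 0.0129), Hoxc12 (adjusted p = 0.075) and, among the lower, Hoxc8 (adjusted p = 0.46) lost. In Hoxa and Hoxd no tested gene was called. There edgeR gave an unadjusted p under 0.05 for 2 of 9 Hoxa genes and 2 of 5 Hoxd genes, and DESeq2 called none of them. The same libraries entered both directions and all clusters. In bulk RNA, fewer cells of a type and less RNA per cell cannot be told apart.

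The summed levels of the clusters also differed. Summed over Hoxb, the level after RA was 441 and 557 CPM in DMSO and 175 and 187 CPM in dTAG, a ratio of dTAG to DMSO of 0.363. Over Hoxc it was 95.8 and 114 CPM in DMSO and 59.7 and 55.5 CPM in dTAG, a ratio of 0.549. Hoxa and Hoxd went the other way. The Hoxa sum was 181 and 194 CPM in DMSO and 236 and 249 CPM in dTAG, a ratio of 1.29, and the Hoxd sum was 35.3 and 35 CPM in DMSO and 42.6 and 38 CPM in dTAG, a ratio of 1.14. In none of the 4 clusters did the pairs of libraries overlap. Within Hoxc the genes at positions 9 to 13 summed to 18.5 ± 2.21 CPM in DMSO and 38.5 ± 3.07 CPM in dTAG (SD, n = 2), while those at positions 5 to 8 summed to 43.4 ± 10.9 and 10.2 ± 0.128 CPM.

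**Figure D2:**
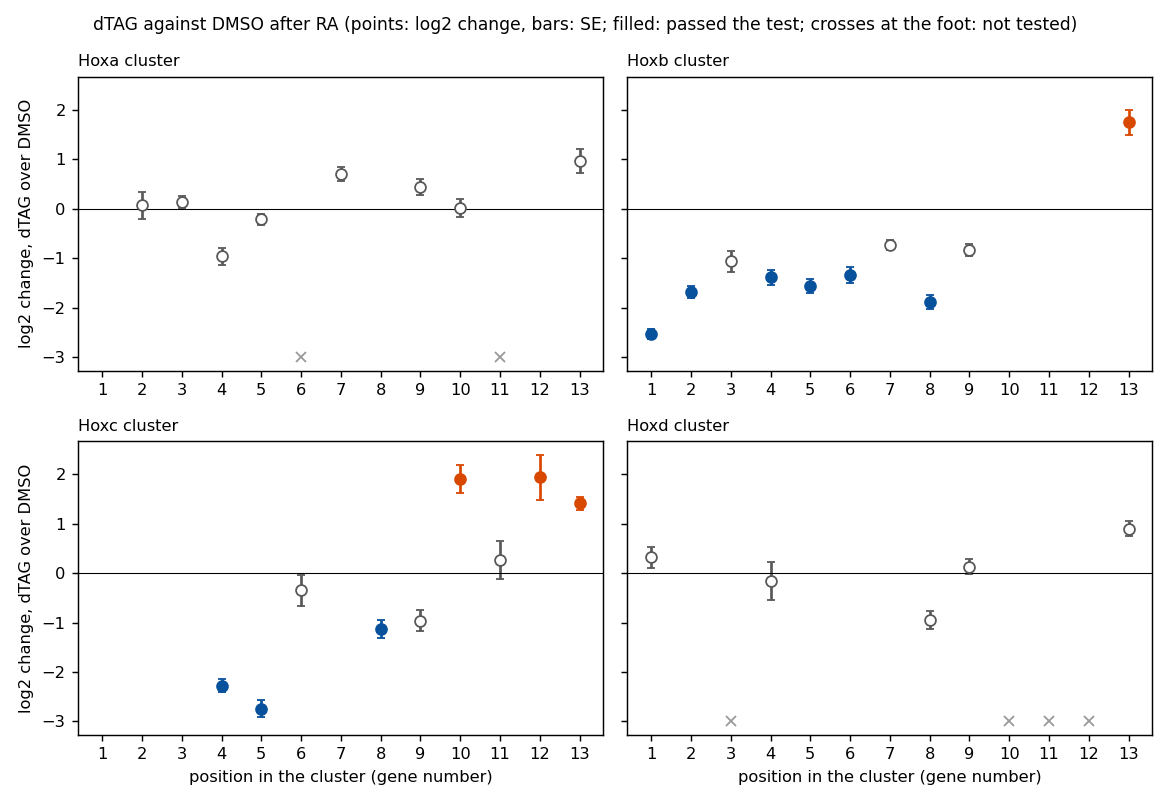
Log2 change of dTAG against DMSO after RA for 32 tested Hox genes by their position in the cluster (points), with the standard error (bars), filled where edgeR called the gene and crossed at the foot where it was not tested. Filled points lie below 0 up to position 8 of Hoxb and Hoxc and above 0 from position 10, and no point of Hoxa or Hoxd is filled.

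Hoxb1, which marks rhombomere 4 of the hindbrain and gives the facial motor neurons their identity, had the highest level of the Hox genes after RA in DMSO. It had no counts in any of the 4 libraries before RA and 2985 and 2267 counts after RA in DMSO, against 489 and 549 in dTAG. Scaled to library size, these were 132 and 154 CPM in DMSO and 23.7 and 25.5 CPM in dTAG. Against a floor of 3 counts over the 2 libraries before RA, the rise was at least 1740-fold in DMSO and at least 364-fold in dTAG. After RA, Hoxb1 was 5.81-fold lower in dTAG, with a log2 change of -2.53 ± 0.0976 (SE) and an adjusted p of 1.48e-12 by edgeR. Per kb of exon it was the highest Hox gene after RA in DMSO, at 61.6 CPM per kb, and in dTAG it stood at 10.6 CPM per kb, sixth among the Hox genes.

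The stretch before Hoxb1 is shown because Hoxb1 was the highest Hox gene after RA in DMSO and was 5.81-fold lower in dTAG. In the 250 bases before its RefSeq start, both strands were searched for TGATNNAT, the core of sites bound by HOX proteins together with TALE partners. The 1 match, in capitals, began 162 bases before the start.
Hoxb1 upstream, chr11:96365508-96365757, plus strand: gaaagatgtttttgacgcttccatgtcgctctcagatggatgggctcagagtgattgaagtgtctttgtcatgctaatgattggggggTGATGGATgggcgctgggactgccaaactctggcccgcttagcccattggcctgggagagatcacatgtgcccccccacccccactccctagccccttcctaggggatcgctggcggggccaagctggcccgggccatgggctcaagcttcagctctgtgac

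In promoter windows of 300 bases from RefSeq (22 of the 39 genes had one, in 24 windows), TGATNNAT was found for Hoxa2, Hoxb1, Hoxb8 and Hoxd11, in 4 of 24 windows against 8.85% of 32851 windows of all genes. The direct repeat with a 5-base spacer was in 0 of the 24 windows and in 0.0974% of all windows.

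The other Hoxb genes from position 2 to 9 had negative log2 changes too, and 5 of these 8 were called. Hoxb2, which patterns rhombomeres of the hindbrain, was read at 0.0524 and 0 CPM in DMSO, 0 and 0.0398 in dTAG, 56.8 and 67.3 in DMSO with RA and 18.3 and 20.3 in dTAG with RA. After RA it was 3.21-fold lower in dTAG (adjusted p = 9.87e-09). Hoxb3, a hindbrain and pharyngeal gene, was read at 0 and 0 CPM in DMSO, 0 and 0 in dTAG, 14.6 and 27.4 in DMSO with RA and 9.22 and 10.5 in dTAG with RA. Its pairs after RA did not overlap, but the DMSO libraries lay far apart and the log2 change of -1.06 ± 0.21 (SE) was not called (adjusted p = 0.023). Hoxb4, known for expanding blood stem cells, was read at 0.0524 and 0.515 CPM in DMSO, 0.519 and 0.676 in dTAG, 38.4 and 54.3 in DMSO with RA and 17.2 and 18.2 in dTAG with RA. It was 2.62-fold lower in dTAG after RA (adjusted p = 3.49e-05). Exons of Hoxb2 and Hoxb3 share bases with Hoxb3os on the opposite strand, and the strand setting of the RNA-seq counting is not given in the sources used here, so part of their counts could belong to that gene.

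Further along Hoxb lie genes that act in the neck and trunk, of which Hoxb5, Hoxb6 and Hoxb8 were called lower and Hoxb7 was not. Hoxb5 was read at 0 and 0 CPM in DMSO, 0 and 0 in dTAG, 26 and 29.7 in DMSO with RA and 9.41 and 9.44 in dTAG with RA. Its rise with RA was at least 339-fold in DMSO and at least 140-fold in dTAG, and after RA it was 2.96-fold lower in dTAG (adjusted p = 1.15e-06). Hoxb6 was read at 0 and 0 CPM in DMSO, 0 and 0 in dTAG, 18.2 and 23 in DMSO with RA and 8.63 and 7.48 in dTAG with RA. This was at least 251-fold and at least 119-fold above the libraries without RA, and 2.55-fold lower in dTAG after RA (adjusted p = 0.000108). For Hoxb7 the values were 0.262 and 0.172 CPM in DMSO, 0.674 and 0.676 in dTAG, 37.7 and 38.3 in DMSO with RA and 24.6 and 21.3 in dTAG with RA. Its log2 change of -0.73 ± 0.106 (SE) after RA was not called (adjusted p = 0.122). Hoxb8 was at 0 and 0 CPM in DMSO, 0.0519 and 0.119 in dTAG, 38.3 and 52.6 in DMSO with RA and 12.6 and 11.9 in dTAG with RA. It was 3.72-fold lower in dTAG after RA (adjusted p = 3.12e-08), a change second in this cluster to that of Hoxb1.

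Hoxb9 and Hoxb13 close the cluster. Hoxb9, which takes part in the form of the ribs, was already read before RA, at 4.51 and 4.58 CPM in DMSO, 3.42 and 4.38 in dTAG, 78.6 and 109 in DMSO with RA and 46.9 and 58.1 in dTAG with RA. Its log2 change after RA was -0.83 ± 0.121 (SE) and was not called (adjusted p = 0.0378). Hoxb13, a gene of the tail end of the axis and of the prostate, lies far from the rest of Hoxb and was read at 0.786 and 0.801 CPM in DMSO, 1.81 and 2.15 in dTAG, 1.19 and 1.57 in DMSO with RA and 4.66 and 4.46 in dTAG with RA. It went against its cluster and was 3.31-fold higher in dTAG after RA (adjusted p = 0.000119). With RA it was called higher in dTAG (2.3-fold, adjusted p = 0.00348), while in DMSO its log2 change of 0.76 ± 0.34 (SE) was not called (adjusted p = 0.239). The call in dTAG was lost without replicate 1 of the dTAG libraries before RA (log2 1.08, adjusted p = 0.0304) and without replicate 1 of those after RA (log2 1.18, adjusted p = 0.0142).

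Hoxc was split along its length. Hoxc4 and Hoxc5, the first genes of this cluster, act in the neck region of the axis. Hoxc4 was read at 5.5 and 6.64 CPM in DMSO, 4.72 and 6.33 in dTAG, 40.2 and 46.4 in DMSO with RA and 8.88 and 8.88 in dTAG with RA. RA raised it 7.14-fold in DMSO, while its log2 change with RA in dTAG was 0.67 ± 0.156 (SE) and was not called (adjusted p = 0.224). After RA it was 4.88-fold lower in dTAG (adjusted p = 2.16e-10). Hoxc5 was read at 0.891 and 0.915 CPM in DMSO, 0.778 and 0.955 in dTAG, 26.3 and 39.9 in DMSO with RA and 4.95 and 4.83 in dTAG with RA. It rose 36.6-fold with RA in DMSO and 5.65-fold in dTAG, and its level after RA was 6.77-fold lower in dTAG (adjusted p = 6e-10), the largest fall among the tested Hox genes. Exons of Hoxc5 and Hoxc10 share bases on the same strand, so their counts are uncertain there.

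Hoxc6, Hoxc8 and Hoxc9 act in motor neurons at limb and thoracic levels of the spinal cord. Hoxc6 was read at 0.576 and 0.286 CPM in DMSO, 0.311 and 0.676 in dTAG, 1.76 and 2.59 in DMSO with RA and 1.7 and 1.63 in dTAG with RA. After RA its log2 change in dTAG was -0.35 ± 0.304 (SE), which was not called (adjusted p = 1), and its call with RA in dTAG was lost without replicate 1 of the dTAG libraries before RA (log2 1.29, adjusted p = 0.0482) or after it (log2 1.67, adjusted p = 0.0125). Hoxc8 was read at 0.157 and 0.286 CPM in DMSO, 0.259 and 0.318 in dTAG, 7.58 and 8.58 in DMSO with RA and 3.49 and 3.86 in dTAG with RA. It was 2.2-fold lower in dTAG after RA (adjusted p = 0.00682), and the call was lost without DMSO replicate 2 with RA (log2 -1.04, adjusted p = 0.0354), without dTAG replicate 1 with RA (log2 -1.03, adjusted p = 0.0598) and without dTAG replicate 2 with RA (log2 -1.18, adjusted p = 0.0238). For Hoxc9 the libraries gave 0.419 and 0.515 CPM in DMSO, 0.778 and 0.995 in dTAG, 5.07 and 5.65 in DMSO with RA and 2.72 and 2.74 in dTAG with RA. Its log2 change of -0.96 ± 0.209 (SE) after RA was not called (adjusted p = 0.0549).

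At the 5′ end of Hoxc lie genes of the lumbar cord and hindlimb and, for Hoxc13, of hair and nails. Hoxc10, which acts in lumbar motor neurons, was read at 1.1 and 1.6 CPM in DMSO, 1.97 and 2.43 in dTAG, 1.01 and 0.817 in DMSO with RA and 3.83 and 3.21 in dTAG with RA. RA did not change it by the test in DMSO (log2 -0.52 ± 0.345, adjusted p = 0.531) or in dTAG (0.66 ± 0.236, adjusted p = 0.287), and after RA it was 3.84-fold higher in dTAG (adjusted p = 0.000184). Hoxc11 was low and was read at 0.996 and 1.09 CPM in DMSO, 1.04 and 1.03 in dTAG, 0.661 and 0.681 in DMSO with RA and 0.97 and 0.651 in dTAG with RA, with no call in any comparison of this experiment. Hoxc12 was the gene that fell with RA, and was read at 6.18 and 6.98 CPM in DMSO, 7.16 and 7.28 in dTAG, 0.397 and 0.136 in DMSO with RA and 0.873 and 1.39 in dTAG with RA. Its fall was 24.7-fold in DMSO and 6.37-fold in dTAG, which left it 4.25-fold higher in dTAG after RA (adjusted p = 0.00839) on counts of 9 and 2 against 18 and 30. That call was lost without DMSO replicate 2 with RA (log2 1.51, adjusted p = 0.0726) and without dTAG replicate 2 with RA (log2 1.57, adjusted p = 0.0986). Hoxc13, needed for hair and nail keratins, was the highest Hox gene before RA in both conditions, and was read at 18.4 and 21.7 CPM in DMSO, 17.6 and 18.8 in dTAG, 12.9 and 9.6 in DMSO with RA and 32.3 and 28.3 in dTAG with RA. With RA its log2 change was -0.81 ± 0.136 in DMSO (adjusted p = 0.0334) and 0.73 ± 0.121 in dTAG (adjusted p = 0.0761), neither of them called. After RA Hoxc13 was 2.69-fold higher in dTAG (adjusted p = 4.4e-06), with all dTAG libraries above all DMSO libraries.

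Genes of Hoxa were switched on by RA in both conditions, and after RA none of the 9 tested genes differed by the test. Hoxa2, which sets the identity of the second pharyngeal arch, was read at 0 and 0.114 CPM in DMSO, 0.104 and 0 in dTAG, 2.25 and 3 in DMSO with RA and 2.81 and 2.6 in dTAG with RA. Hoxa3, needed for the thymus and parathyroid, was read at 0.105 and 0.343 CPM in DMSO, 0.519 and 0.637 in dTAG, 17.6 and 18.2 in DMSO with RA and 19.5 and 20 in dTAG with RA. Both of these genes lay within 0.14 of 0 on the log2 scale after RA. For Hoxa4 the values were 0.0524 and 0.114 CPM in DMSO, 0.207 and 0.398 in dTAG, 11.5 and 10.4 in DMSO with RA and 5.82 and 5.48 in dTAG with RA. This gene was below DMSO in both dTAG libraries after RA, at -0.96 ± 0.171 on the log2 scale, without passing the test (adjusted p = 0.0258). Hoxa5, a gene of the lung and neck vertebrae, was read at 0.157 and 0.0572 CPM in DMSO, 0.674 and 0.637 in dTAG, 34.2 and 40.8 in DMSO with RA and 32 and 32.6 in dTAG with RA. Its rise with RA was 350-fold in DMSO and 49.3-fold in dTAG, from a few counts in DMSO before RA, and the levels after RA differed by -0.21 ± 0.106 on the log2 scale (adjusted p = 1).

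In the 5′ portion of Hoxa, neither Hoxa7, Hoxa9, Hoxa10 nor Hoxa13 was called between dTAG and DMSO after RA. Hoxa7 was read at 1.52 and 1.95 CPM in DMSO, 4.2 and 3.94 in dTAG, 8.38 and 9.67 in DMSO with RA and 14.7 and 14.5 in dTAG with RA. Hoxa9, a gene of blood progenitors that is active in leukaemia, was read at 0.0524 and 0.114 CPM in DMSO, 0.83 and 0.796 in dTAG, 7.45 and 6.81 in DMSO with RA and 9.75 and 9.67 in dTAG with RA. Hoxa10, which acts in the uterus and lumbar axis, was read at 0.262 and 0.114 CPM in DMSO, 0.882 and 0.796 in dTAG, 7.27 and 6.88 in DMSO with RA and 8.2 and 6.23 in dTAG with RA. Their log2 changes after RA were 0.71 ± 0.142, 0.44 ± 0.161 and 0.02 ± 0.182 (SE), none of them called (adjusted p = 0.26, 1 and 1). Hoxa13, a gene of the digits and the genital tract, was read at 0.105 and 0 CPM in DMSO, 0.57 and 0.438 in dTAG, 2.51 and 1.98 in DMSO with RA and 4.17 and 4.79 in dTAG with RA, with a log2 change of 0.97 ± 0.242 (SE) after RA that was not called (adjusted p = 0.0818). Exons of Hoxa3, Hoxa4 and Hoxa7 share bases with Hoxaas genes on the opposite strand. Hoxa6 and Hoxa11 did not pass the filter. Hoxa6 had 12 and 8 counts after RA in DMSO and 6 and 7 in dTAG. For Hoxa11, which shapes the forearm and kidney, the counts after RA were 2 and 1 in DMSO and 33 and 30 in dTAG, a ratio of 18.6 with a counting interval of 6.09 to 92.7.

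Hoxd had the lowest summed level of the clusters after RA, and none of its 5 tested genes was called between dTAG and DMSO there. Hoxd1, which acts in sensory neurons, was read at 0.105 and 0 CPM in DMSO, 0.519 and 0.239 in dTAG, 5.11 and 4.9 in DMSO with RA and 6.94 and 5.62 in dTAG with RA, with a log2 change of 0.32 ± 0.211 (SE, adjusted p = 1) after RA. Hoxd4, a gene of the hindbrain and neck, was read at 0.0524 and 0.0572 CPM in DMSO, 0.156 and 0.119 in dTAG, 0.705 and 1.57 in DMSO with RA and 0.873 and 1.02 in dTAG with RA. Its call with RA in dTAG was lost without replicate 2 of the dTAG libraries before RA (log2 2.56, adjusted p = 0.0131). Hoxd8 was read at 0.576 and 0.401 CPM in DMSO, 1.04 and 0.716 in dTAG, 11.2 and 11.9 in DMSO with RA and 6.79 and 5.11 in dTAG with RA, and was lower in both dTAG libraries after RA without a call (log2 -0.95 ± 0.177, adjusted p = 0.033). Hoxd9, a gene of the limb and lumbar axis, was read at 1.05 and 1.03 CPM in DMSO, 2.39 and 2.31 in dTAG, 8.95 and 7.83 in DMSO with RA and 9.31 and 9.16 in dTAG with RA. Hoxd13, needed for the digits, was read at 2.31 and 2.46 CPM in DMSO, 4.72 and 3.98 in dTAG, 7.1 and 6.74 in DMSO with RA and 14 and 12 in dTAG with RA. After RA these last 2 genes stood at 0.13 ± 0.155 and 0.9 ± 0.152 on the log2 scale (adjusted p = 1 and 0.0315).

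The other 4 Hoxd genes were too low for the filter, and their counts after RA pointed in different directions. Hoxd3 had 19 and 16 counts in DMSO and 1 and 2 in dTAG, a ratio of 0.076 with a counting interval of 0.015 to 0.241. The limb genes Hoxd10, Hoxd11 and Hoxd12 went the other way. Hoxd10 had 7 and 3 counts in DMSO and 34 and 32 in dTAG, a ratio of 6.12 in CPM. Hoxd11 had 22 and 9 counts in DMSO and 28 and 43 in dTAG, a ratio of 2.12. For Hoxd12 the counts were 4 and 2 in DMSO and 34 and 32 in dTAG, a ratio of 10.0. Without the filter on low counts, Hoxa11, Hoxd10 and Hoxd12 were called higher and Hoxd3, Hoxb3 and Hoxb9 lower in dTAG after RA. Hoxd3 and Hoxd4 share exons on the same strand, so their counts are uncertain.

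Whether the change between the libraries before and after RA differed between conditions was tested by the interaction term of edgeR (quasi-likelihood test, adjusted p under 0.05 and a difference above 0.5 on the log2 scale). In dTAG this change also spans the step from 24 to 48 h of depletion, over which Hox genes moved without RA in the time course (1 gene called higher than DMSO at 24 h and 8 at 48 h), and the effects of RA and of the longer depletion cannot be told apart in it. The log2 change was lower in dTAG for 12 of the 33 tested Hox genes and higher for 3, against 18% and 13.7% of all tested genes. The 12 were Hoxa4, Hoxa5, Hoxa9 and Hoxa10, Hoxb4, Hoxb7 and Hoxb8, Hoxc4, Hoxc5 and Hoxc9, and Hoxd8 and Hoxd9. The 3 were Hoxc10, Hoxc12 and Hoxc13. For Hoxc4 the difference was -2.17 ± 0.214 (SE, adjusted p = 8.31e-08) and for Hoxc13 it was 1.55 ± 0.183 (adjusted p = 9.1e-07). A lower change here need not be a lower level after RA. Before RA Hoxa9 was called higher in dTAG, with 1 and 2 counts in DMSO and 16 and 20 in dTAG, and its levels after RA differed by 0.44 ± 0.161 on the log2 scale. Hoxa5, Hoxa10 and Hoxd9 had log2 differences of 2.51, 2.09 and 1.17 before RA that were not called (adjusted p = 0.0149, 0.0263 and 0.0568), and differences of -0.21, 0.02 and 0.13 after RA that were not called either (adjusted p = 1 for each). Hoxb1, Hoxb3, Hoxb5 and Hoxb6 had no counts in any library before RA, so the interaction holds no information on them. Some of these calls rested on 1 library. That of Hoxa4 was lost without dTAG replicate 2 before RA (log2 -2.23, adjusted p = 0.106), and that of Hoxc12 without dTAG replicate 2 with RA (log2 1.48, adjusted p = 0.0513). The call of Hoxb4 was lost without DMSO replicate 1 (log2 -1.61, adjusted p = 0.0506) or dTAG replicate 2 before RA (log2 -2.28, adjusted p = 0.0528). For Hoxb8, which had no counts in DMSO before RA so that its difference is no bound, it was lost without DMSO replicate 1 (log2 -5.84, adjusted p = 0.0683), DMSO replicate 2 (log2 -5.86, adjusted p = 0.062) or dTAG replicate 2 (log2 -5.06, adjusted p = 0.167) before RA. For Hoxc10 it was lost without DMSO replicate 2 (log2 0.90, adjusted p = 0.154) or dTAG replicate 1 (log2 1.06, adjusted p = 0.0806) before RA, and without DMSO replicate 2 (log2 1.06, adjusted p = 0.0708) or dTAG replicate 1 (log2 1.11, adjusted p = 0.0634) with RA.

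Before RA, depletion for 24 h left most Hox genes low. Hoxa9 was called higher (ratio 9.88 in CPM with a counting interval of 3.12 to 50.1, adjusted p = 0.00138) and no Hox gene was called lower, against 2.74% higher and 3.66% lower of all tested genes. The call of Hoxa9 was lost without replicate 1 of the DMSO libraries (log2 2.76, adjusted p = 0.0333), which leaves 0 calls. By edgeR an unadjusted p under 0.05 was reached by 13 Hox genes, all of them higher in dTAG and none lower, and DESeq2 called none in either direction. Many tested Hox genes had few or no counts in DMSO before RA and passed the filter through their RA libraries. Such genes could hardly be lower, so the lack of lower genes is no result. By the quasi-likelihood test (adjusted p under 0.05, log2 change above 0.5) 13 Hox genes were higher. There 2302 of all 15915 tested genes were higher and 1342 lower. Hoxd13 was among the genes with an unadjusted p under 0.05, with 2.31 and 2.46 CPM in DMSO and 4.72 and 3.98 CPM in dTAG (adjusted p = 0.234). The sum over Hoxa was 5.55 and 6.12 CPM in DMSO and 14.8 and 14.2 CPM in dTAG, a ratio of 2.48. Over Hoxd it was 4.14 and 4.06 CPM in DMSO and 9.28 and 7.64 CPM in dTAG, a ratio of 2.06, and over Hoxb 5.66 and 6.06 CPM and 6.48 and 8.04 CPM, a ratio of 1.24. These sums were not tested. The sum over Hoxc, at 34.3 and 40.1 CPM in DMSO and 34.6 and 38.8 CPM in dTAG, overlapped between the groups.

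**Figure D3:**
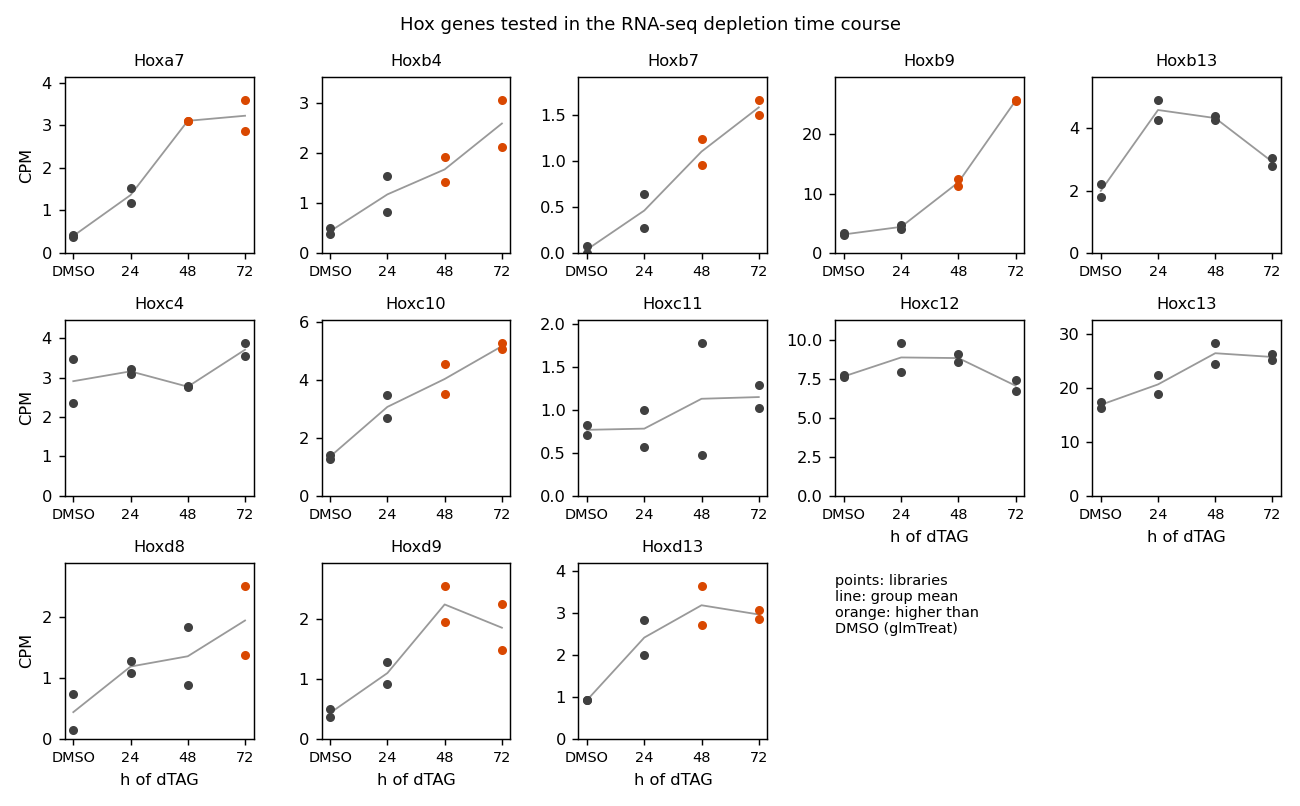
Level in CPM of 13 of the Hox genes tested in the RNA-seq depletion time course, by hours of dTAG, with points for libraries, lines for group means, and orange where edgeR called the gene higher than in DMSO. Hoxa7, Hoxb4, Hoxb7, Hoxb9, Hoxc10, Hoxd8, Hoxd9 and Hoxd13 are orange at 72 h, while Hoxb13, Hoxc4, Hoxc11, Hoxc12 and Hoxc13 are not orange at any time.

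In the time course of depletion without RA, Hox genes rose from low levels, with more of them called at 48 and 72 h than at 24 h. By edgeR (glmTreat), 1 of the 14 tested genes was higher at 24 h, 8 at 48 h and 9 at 72 h, against 2.32%, 10.5% and 13.7% of all 13925 tested genes. At 24 h all 14 were positive, with a median log2 change of 1.27, and 9 reached an unadjusted p under 0.05. None was lower at any time, where 3.41%, 7.71% and 12% of all tested genes were. Hoxa7, Hoxb4, Hoxb7, Hoxd8 and Hoxd9 had 10, 11, 1, 10 and 11 counts over the 2 DMSO libraries. They passed the filter through their dTAG libraries and could hardly be called lower. For them the positive sign and the lack of lower calls are therefore no test. No Hox gene that was lower reached an unadjusted p under 0.05, and DESeq2 called none lower. These comparisons share the same 2 DMSO libraries. By DESeq2 the numbers of higher genes were 0 at 24 h, 3 at 48 h and 4 at 72 h. Without DMSO replicate 2 the number at 24 h was 0. At 48 h, 5 calls were left without replicate 2 of that time, where Hoxc10 (log2 1.36, adjusted p = 0.0236), Hoxd13 (log2 1.54, adjusted p = 0.0207) and Hoxb4 (log2 2.09, adjusted p = 0.0138) were lost. Without replicate 1 at 48 h Hoxb4 (log2 1.66, adjusted p = 0.0963) and Hoxd9 (log2 2.12, adjusted p = 0.0121) were lost, without DMSO replicate 1 Hoxb4 (log2 1.74, adjusted p = 0.0446), and without DMSO replicate 2 Hoxb4 (log2 2.17, adjusted p = 0.0288) and Hoxd13 (log2 1.77, adjusted p = 0.0106).

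The genes that rose came from all 4 clusters. Hoxa7 was at 0.367 and 0.427 CPM in DMSO, 1.53 and 1.18 by 24 h, 3.11 and 3.11 by 48 h, then 3.6 and 2.86 by 72 h, 8.14-fold above DMSO at 72 h (adjusted p = 2.49e-06). In Hoxb, Hoxb9 reached the highest level of the genes that rose, at 2.93 and 3.27 CPM in DMSO, 4.75 and 4 by 24 h, 12.5 and 11.3 by 48 h, then 25.8 and 25.7 by 72 h. At 72 h it was 8.3-fold above DMSO (adjusted p = 4.96e-15). Hoxb4 was at 0.367 and 0.498 CPM in DMSO, 1.53 and 0.819 by 24 h, 1.92 and 1.42 by 48 h, then 2.12 and 3.06 by 72 h, 6.0-fold above DMSO at 72 h (adjusted p = 8.24e-05). Hoxb7 rose from 0 and 1 counts in DMSO to 18 and 22 counts at 72 h, a ratio of 39.1 in CPM with a counting interval of 6.63 to 1580. Its levels were 0 and 0.0711 CPM in DMSO, 0.644 and 0.273 by 24 h, 0.958 and 1.24 by 48 h, then 1.66 and 1.5 by 72 h.

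In Hoxc 1 gene and in Hoxd 3 genes were called higher at 72 h. Hoxc10 was at 1.28 and 1.42 CPM in DMSO, 2.66 and 3.46 by 24 h, 3.51 and 4.53 by 48 h, then 5.26 and 5.04 by 72 h, 3.81-fold above DMSO at 72 h (adjusted p = 2.02e-05). Hoxd8 was at 0.733 and 0.142 CPM in DMSO, 1.29 and 1.09 by 24 h, 1.84 and 0.888 by 48 h, then 1.38 and 2.52 by 72 h, 4.46-fold above DMSO at 72 h (adjusted p = 0.00231). Its DMSO libraries differed from each other, and the call was lost without DMSO replicate 2 (log2 1.45, adjusted p = 0.0839) and without replicate 2 at 72 h (log2 1.74, adjusted p = 0.0978). Hoxd9 was at 0.367 and 0.498 CPM in DMSO, 1.29 and 0.91 by 24 h, 2.56 and 1.95 by 48 h, then 1.48 and 2.25 by 72 h, 4.31-fold above DMSO at 72 h (adjusted p = 0.00155), a call lost without DMSO replicate 1 (log2 1.92, adjusted p = 0.0122) and without replicate 2 at 72 h (log2 1.71, adjusted p = 0.0505). Hoxd13 was at 0.916 and 0.924 CPM in DMSO, 2.82 and 2 by 24 h, 2.72 and 3.64 by 48 h, then 2.86 and 3.06 by 72 h. At 72 h it was 3.22-fold above DMSO (adjusted p = 0.00157), and this was lost without DMSO replicate 2 (log2 1.69, adjusted p = 0.0122) or replicate 2 at 72 h (log2 1.61, adjusted p = 0.014).

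The other 5 tested genes were not called at any time. Hoxc12 was at 7.61 and 7.75 CPM in DMSO, 7.97 and 9.83 by 24 h, 9.1 and 8.62 by 48 h, then 6.74 and 7.42 by 72 h, with a log2 change of -0.11 ± 0.16 (SE, adjusted p = 1) at 72 h. Hoxc13 was at 16.4 and 17.4 CPM in DMSO, 19 and 22.4 by 24 h, 24.5 and 28.4 by 48 h, then 26.4 and 25.2 by 72 h, with 0.6 ± 0.104 (adjusted p = 0.488). Hoxb13 was at 2.2 and 1.78 CPM in DMSO, 4.91 and 4.28 by 24 h, 4.39 and 4.26 by 48 h, then 3.05 and 2.79 by 72 h, with 0.56 ± 0.267 (adjusted p = 0.633) at 72 h. Hoxc4 was at 3.48 and 2.35 CPM in DMSO, 3.22 and 3.09 by 24 h, 2.79 and 2.75 by 48 h, then 3.88 and 3.54 by 72 h, with 0.37 ± 0.244 (adjusted p = 1). Hoxc11 was low throughout, at 0.825 and 0.711 CPM in DMSO, 0.564 and 1 by 24 h, 0.479 and 1.78 by 48 h, then 1.02 and 1.29 by 72 h. The 25 genes that were not tested had at most 21 counts in any library. Among them Hoxa9 had no counts in DMSO, 7 and 2 by 24 h, 15 and 15 by 48 h, then 8 and 7 by 72 h. Against a floor of 3 counts over the DMSO libraries this was at least 3.1-fold, 10.5-fold and 5.06-fold more. Hoxb2, Hoxb5, Hoxd3 and Hoxd12 had no counts in any of the 8 libraries, and Hoxb1 had 1 count in all, at 72 h. The 24 h comparison was made in 2 separate sets of libraries, the time course and the RA experiment before RA. Of the 14 Hox genes tested in both, 10 were higher in both and 71.4% had the same sign, against 77.7% of 13782 genes.

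In TT-seq no Hox gene was called at 2, 6 or 24 h of depletion in either direction. By the quasi-likelihood test of edgeR (adjusted p under 0.05 and a log2 change above 0.5), 0.168%, 0.386% and 2.01% of all 17870 tested genes were higher and 2.37%, 2.92% and 4.25% lower. An unadjusted p under 0.05 was reached by 1, 0 and 2 of the 11 tested Hox genes, and DESeq2 called none at any time. The 2 at 24 h were Hoxa3, with 3 and 21 counts in DMSO and 26 and 56 at 24 h (adjusted p = 0.129), and Hoxd3, with 6 and 21 counts in DMSO and 21 and 55 at 24 h (adjusted p = 0.185). For both, the low DMSO library is the shallower one, with 9721568 counts against 13255099. After scaling to library size the sums of these 2 DMSO libraries also differed, at 0.723 and 4.18 CPM over Hoxa and 1.96 and 5.39 CPM over Hoxd. TT-seq reads were counted over whole genes on each strand, and a read in overlapping genes counted for each of them, so that Hoxa3, whose span holds Hoxa4, Hoxa5 and Hoxa6, and Hoxd3, which overlaps Hoxd4, share reads with those genes. Among the most read Hox genes were Hoxc12, with 15.4 and 11.6 CPM in DMSO and 15.6 and 10.8 CPM at 24 h, and Hoxc13, with 10.5 and 11.1 CPM in DMSO and 9.63 and 13.7 CPM at 24 h. Hoxb9 had 10.2 and 13.3 CPM in DMSO and 5.99 and 10.0 CPM at 24 h, a log2 change of -0.55 ± 0.376 (SE, adjusted p = 0.443). The log2 changes of the 11 genes ran from -1.03 to 0.22 at 2 h, from -0.6 to 0.6 at 6 h and from -0.55 to 1.75 at 24 h. The 28 genes that were not tested had at most 35 counts in any library.

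**Figure D4:**
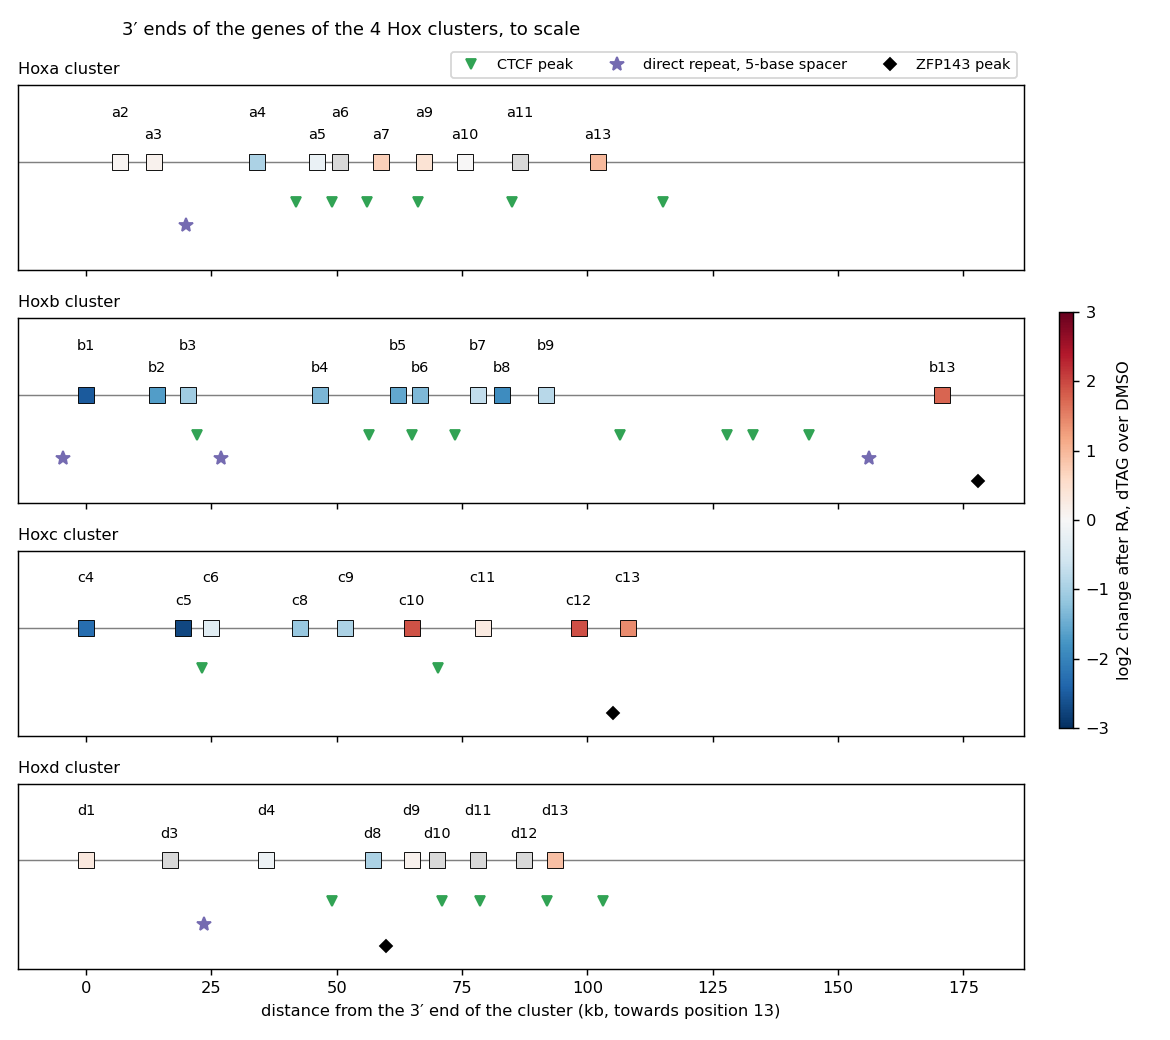
Map of the 4 Hox clusters to scale, with squares at the 3′ ends of the genes coloured by the log2 change of dTAG against DMSO after RA (grey, not tested), and CTCF peaks, the 5 direct repeats given in the text and ZFP143 peaks drawn at their distance in kb from the 3′ end of the cluster. Blue squares fill Hoxb up to Hoxb9 and the first genes of Hoxc, and the 3 ZFP143 peaks lie at Hoxb13, between Hoxc12 and Hoxc13, and at Hoxd8.

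Along the clusters, the change after RA was compared with position. The Spearman correlation of the log2 change of dTAG against DMSO after RA with position was 0.85 over 9 genes in Hoxc, 0.64 over 10 in Hoxb, 0.23 over 9 in Hoxa and 0.3 over 5 in Hoxd. Genes of a cluster are neighbours that share libraries and, in places, reads, so these values are descriptions.

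The deposited list of ZFP143 ChIP-seq peaks in the stem cells held 3 peaks inside the clusters or within 10 kb of them, out of 3189. They lay beside Hoxb13 at chr11:96190229-96190483, between Hoxc13 and Hoxc12 at chr15:102931504-102931841 and in Hoxd8 at chr2:74705137-74705618. Their enrichments over input were 7.73-fold, 11.3-fold and 6.54-fold, where the median of all peaks was 20.8-fold with quartiles of 9.51 and 44.3. A peak lay within 1 kb of the start of 1 of the 39 Hox genes, Hoxd8, against 12.4% of 15905 tested genes, and within 10 kb of 6 (Hoxb13, Hoxc12, Hoxd3, Hoxd4, Hoxd8 and Hoxd9), against 17.3%. Of these, Hoxb13 and Hoxc12 were higher in dTAG after RA and Hoxd4, Hoxd8 and Hoxd9 were not called. Hoxd3 was too low for the filter, with 35 counts over the DMSO libraries with RA and 3 over the dTAG libraries with RA. No peak lay within 10 kb of Hoxb1 to Hoxb9 or of Hoxa. The middle of the peak of Hoxc is shown because the genes on both sides of it were higher in dTAG after RA. Its capitals mark TTCTGGG, the opposite strand of CCCAGAA, which was searched on both strands with ACTACA as parts of the ZFP143 motif.
ZFP143 peak between Hoxc13 and Hoxc12, chr15:102931523-102931822, plus strand: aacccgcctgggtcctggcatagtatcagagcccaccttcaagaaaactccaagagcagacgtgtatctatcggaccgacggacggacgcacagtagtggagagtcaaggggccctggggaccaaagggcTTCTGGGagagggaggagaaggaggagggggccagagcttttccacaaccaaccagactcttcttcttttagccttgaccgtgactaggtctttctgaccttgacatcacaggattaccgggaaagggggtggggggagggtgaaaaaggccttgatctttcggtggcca

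The letters CCCAGAA were in 27.8% and ACTACA in 41.3% of all ZFP143 peaks, while the peaks of Hoxb13 and Hoxd8 held neither. CTCF, which separates chromatin domains in Hox clusters, had 5 deposited peaks inside Hoxa, 8 inside Hoxb, 2 inside Hoxc and 4 inside Hoxd. The peaks were called in the stem cells, and no peaks after RA were analysed here.

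For genes that act with or on Hox genes, counts can be read against the shares of all tested genes, which were 25.8% higher and 18.1% lower with RA in DMSO, 25% higher and 18.5% lower with RA in dTAG, 9.1% higher and 7.36% lower in dTAG after RA, and 13.7% higher and 12% lower at 72 h of the time course. Of 16 tested genes of RA signalling, 11 rose with RA in DMSO and 12 in dTAG, led in DMSO by Cyp26a1, which degrades RA, by Stra6, which takes up its precursor retinol, and by the receptor gene Rarb. After RA 5 of them were lower in dTAG and 1 was higher. The largest falls were those of Crabp2, which carries RA into the nucleus (log2 -3.23 ± 0.177), of Dhrs3, which limits RA synthesis (-2.55 ± 0.118), and of Stra6 (-2.2 ± 0.119). Of the 9 TALE genes, whose proteins bind DNA together with HOX proteins, 7 rose with RA in DMSO and 6 in dTAG. After RA 4 were lower in dTAG and 1 was higher, with Meis1 at -1.75 ± 0.13 and Pknox2 at -1.69 ± 0.137. In the time course Meis1 rose with the Hox genes, by 2.06 at 24 h, 2.86 at 48 h and 3.13 at 72 h on the log2 scale, and in TT-seq at 24 h by 2.03. Of the Cdx genes, which activate posterior Hox genes, Cdx1 was tested, with 15.0 and 19.5 CPM in DMSO, 6.53 and 7.16 in dTAG, 26.4 and 14 in DMSO with RA and 35.7 and 28.4 in dTAG with RA. It was lower in dTAG before RA (-1.32 ± 0.217, adjusted p = 0.00482), rose with RA in dTAG (2.22 ± 0.204, adjusted p = 6.08e-08) and was not called between the conditions after RA. At 72 h of the time course it was higher (1.72 ± 0.287, adjusted p = 0.000275).

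Of 32 tested Polycomb genes, 3 were higher and 1 was lower in dTAG after RA, with Phf19 at 1.07 ± 0.144 and Rbbp7 at -0.88 ± 0.073 on the log2 scale. The count of higher genes is near the share of all genes. In the time course 6 were higher and 3 lower at 72 h, among them Epop at -1.79 ± 0.0574. Of 12 genes of the trithorax group, which work against Polycomb, Men1 was lower in dTAG before RA (-1.93 ± 0.0773) and after it (-1.19 ± 0.0785), and Rbbp5 was higher after RA (0.8 ± 0.0722). Of 7 tested noncoding genes in the clusters, 6 rose with RA in each condition, and after RA Hoxaas3 (-1.86 ± 0.224) and Hoxb3os (-1.01 ± 0.156) were lower in dTAG. Of 9 tested genes that neighbour the clusters, Smug1 beyond Hoxc was lower after RA in dTAG (-1.61 ± 0.0921) and Ttll6 beyond Hoxb13 was higher (1.57 ± 0.186).

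Markers of cell state moved beside the Hox genes. All 13 pluripotency genes were lower with RA in both conditions, where 18.1% (DMSO) and 18.5% (dTAG) of all tested genes were. Their median log2 changes were -3.32 in DMSO and -2.57 in dTAG. After RA 5 of them were higher in dTAG, led by Esrrb at 2.44 ± 0.149, Tdgf1 at 2.31 ± 0.145 and Klf4 at 1.38 ± 0.176. Of all tested genes 9.1% were higher and 7.36% lower there. After RA 1 of 6 tested neural genes was higher in dTAG (Zic1) and 2 were lower (Pax6 and Nes), and of 7 tested hindbrain genes 3 were higher (among them Fgf3 and Epha4) and none was lower. Of 7 tested mesoderm genes 1 was higher (Mixl1) and 1 was lower (Meox1), and of 7 tested endoderm genes 2 were higher (Cxcr4 and Gata6) and 1 was lower (Dab2). In the time course 6 pluripotency genes were lower and none was higher at 72 h. The part of these cell states in the Hox values was not tested.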

How the data were processed

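The authors mapped the reads to mm10 with STAR and deposited raw counts per gene, 1 column per library, from STAR for RNA-seq and from HTSeq over whole genes on each strand, after removal of duplicates, for TT-seq. The strand setting of the RNA-seq counts is not given in the sources used here. The authors called ZFP143 and CTCF peaks with MACS against input. The deposited ZFP143 list gives the fold enrichment and the −log10 q of each peak, has no replicates, and was used as a description, like the CTCF positions.

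Each count table was fitted as 1 model of 4 groups of 2 libraries in edgeR 4.0.16 (R 4.3.3), with TMM scaling over genes that had over 10 counts in 4 or more of its 8 libraries. RNA-seq comparisons used glmTreat against a 1.5-fold change (adjusted p under 0.01), while TT-seq and the interaction used the quasi-likelihood test (adjusted p under 0.05, log2 change over 0.5). Adjusted p-values are Benjamini-Hochberg values over all tested genes of a comparison. CPM were counts scaled by library size and TMM, and CPM per kb were divided by the summed exon length. Folds are ratios of mean CPM. A group without counts was set to a floor of 3 counts, and ratios on few counts have exact 95% intervals that cover counting error only.

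Of the 39 members, 1 enters the counts and sums but is not reported by name here, like some genes of the lists. The others are accounted for with values per library for genes that were called or averaged at least 50 counts. In the lists up to 3 called genes with the largest changes are named. The lists (RA signalling, TALE, Cdx, Polycomb, trithorax, noncoding genes and neighbours of the clusters, pluripotency, neural, hindbrain, mesoderm and endoderm) and the members were chosen with earlier results of these data known. Gene positions came from the GENCODE annotation of mm10, in which 55141 of 55401 identifiers were found, and sequences from RefSeq. Alternatives were DESeq2 1.42.0 as the test and its size factors, library size alone, no filter, the quasi-likelihood thresholds, a replicate block and leaving out each library. The fits were tested on simulated counts.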

Additional observations from a re-analysis of the deposited data

Results flagged for a closer look

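For 15 of the 33 tested Hox genes the log2 change with RA differed between dTAG and DMSO by the interaction test of edgeR. It was lower in dTAG for 12 and higher for 3, where 18% and 13.7% of all 15915 tested genes were. Each value here is the log2 change with RA in dTAG minus that in DMSO, with its SE. In Hoxa it was -2.82 ± 0.758 for Hoxa4, -2.72 ± 0.597 for Hoxa5, -2.77 ± 0.63 for Hoxa9 and -2.07 ± 0.559 for Hoxa10. In Hoxb it was -2.51 ± 0.661 for Hoxb4 and -2.33 ± 0.483 for Hoxb7. It was -5.83 ± 1.96 for Hoxb8, which had no counts in DMSO before RA. In Hoxc it was -2.17 ± 0.214 for Hoxc4, -2.7 ± 0.46 for Hoxc5 and -1.9 ± 0.447 for Hoxc9, and it was positive for Hoxc10 (1.18 ± 0.418), Hoxc12 (1.8 ± 0.5) and Hoxc13 (1.55 ± 0.183). In Hoxd it was -1.75 ± 0.454 for Hoxd8 and -1.04 ± 0.309 for Hoxd9. Of these genes, Hoxc4, Hoxc5, Hoxc10, Hoxc13 and Hoxd9 had at least 10 counts in every library of the RA experiment, and the others had fewer in 1 or more libraries. The calls of Hoxa4, Hoxb4, Hoxb8, Hoxc10 and Hoxc12 were lost when single libraries were left out. Groups of 2 libraries were too small for a search for single libraries that stand apart.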

How the results depend on the processing

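No call of a Hox gene reversed under any alternative. Of 1095 pairs of a called gene and an alternative, 1033 kept the call and 62 lost it, and 79 of 105 calls were kept under every alternative run. With the DESeq2 test 22 of 105 calls were lost. The number of higher genes at 24 h of the RNA-seq time course, 1 in the report, was 2 with library size alone, 0 with DESeq2, 9 with the quasi-likelihood thresholds and 0 to 1 when 1 library was left out. At 48 h it was 3 with DESeq2 and 5 to 8 without 1 library, and at 72 h it was 4 with DESeq2 and 6 to 9 without 1 library. In TT-seq at 24 h, 2 genes were higher without the filter. Before RA the number of genes higher in dTAG was 4 with library size alone, 3 without the filter, 0 with DESeq2, 13 with the quasi-likelihood thresholds and 0 to 1 without 1 library. After RA it was 7 without the filter, 1 with DESeq2, 8 with the quasi-likelihood thresholds and 3 to 4 without 1 library, and the number lower was 15 with the quasi-likelihood thresholds and 8 to 11 without 1 library. With RA in DMSO 2 genes were lower with the quasi-likelihood thresholds and 1 to 2 without 1 library. The number of all genes called moved too. With the quasi-likelihood thresholds 1591 of 13925 genes were higher at 24 h of the RNA-seq time course. Of 15915 genes, 2302 were then higher in dTAG before RA, and 3333 were higher and 2966 lower after RA. With DESeq2, 102, 780 and 1123 were higher at 24, 48 and 72 h, 143 before RA and 789 after RA. Without the filter 560 of 31448 were higher before RA and 1803 after RA. The cause of these changes in number was not tested.

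With library size alone the median log2 change of all genes moved by 0.32 with RA in DMSO, 0.39 with RA in dTAG and 0.21 for dTAG against DMSO after RA, and the ratios of summed levels after RA became 1.49 for Hoxa, 0.632 for Hoxc and 1.32 for Hoxd. With 2 replicate numbers, same-numbered libraries were not taken as paired. Their deviations from the group means correlated at 0.193 to 0.631 in TT-seq, at -0.0419 to 0.0621 in the RNA-seq time course and at -0.0986 to 0.125 in the RA experiment. With the replicate block the numbers were 3 higher and 11 lower in dTAG after RA, 3 and 13 for the interaction and 7 higher at 48 h. In TT-seq, where all these correlations were positive, the block raised the number of all genes called higher from 30 to 91 at 2 h, from 69 to 342 at 6 h and from 359 to 1000 at 24 h, and no Hox gene was called with it at any time. With 2 libraries a group and few counts before RA, small changes of low genes could not be detected.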
